A study of Mus musculus with 36 samples.

Results

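A set of 7 genes that mark the hippocampus was followed through the brains of 36 mice. The members were taken from the table of counts by their symbols: Neurod6, Fibcd1, Spink8 and Wfs1 as genes of the CA fields, and Prox1, C1ql2 and Dsp as genes of the dentate gyrus. They are 7 of 56980 genes in the table and 7 of the 25601 genes that passed the filter on low counts. The set was selected on group values of these same data, the knockout and CP2 differences in F mice among them, so the knockout effect in vehicle-treated F mice and the CP2 effect in F knockouts are given below as descriptions without a test. The F minus M difference of the knockout effect with vehicle was also in view. P-values of the members for that effect in M mice are therefore not independent of the choice. The same holds for other contrasts that use the M vehicle samples.

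The animals were wild type (WT) or lacked Ndufs4 (KO), a gene for a subunit of respiratory complex I, and were 37 to 45 days old. Strain, allele and the extent of the deletion are not given in the labels. Each received CP2, a small molecule that inhibits complex I, or vehicle by gavage on 3 days. Every title carries the letter F or M, which is used here as a group label, since the labels do not say what the letter stands for. The F groups were WT with vehicle, WT with CP2, KO with vehicle and KO with CP2, each with 5 samples. The M groups were WT with vehicle and KO with vehicle, each with 3 samples, and WT with CP2 and KO with CP2, each with 5 samples. The labels call the tissue brain and the design text names hippocampus and cortex, so the amount of hippocampus in a sample is not known. Whether samples of a group came from separate litters is not given, and p-values measure the spread between these samples.

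The CA fields hold the pyramidal neurons of the hippocampus, and the dentate gyrus holds its granule neurons, which receive cortical input and send mossy fibres to CA3. Both are glutamatergic, and each keeps a set of genes that is low or absent in the other. In whole tissue the level of such a gene depends on how many of its cells were dissected and on how much RNA each cell holds, and these cannot be told apart here. Neurod6 is also made by pyramidal neurons of the cortex, and Wfs1 by other forebrain neurons, so neither is specific to CA cells in tissue that contains cortex.

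The promoters of 4 members are shown because Prox1, C1ql2 and Dsp varied together over all 36 samples while Wfs1 followed genotype. That co-variation did not pass the test without L227, L228 and L272 or in M alone, as given below. Shared regulation was not tested. Each line holds the 250 bases before the first annotated start site, 5′ to 3′ on the strand of the gene, from RefSeq on GRCm38.p6. Capitals mark the E-box CANNTG, the core sequence bound by basic helix-loop-helix factors such as those of the NeuroD family. It was searched on both strands, is its own reverse complement in this form, and includes CAGATG. The windows are chr1:190170828-190171077 on the minus strand for Prox1, chr1:120340332-120340581 on the plus strand for C1ql2, chr13:38151044-38151293 on the plus strand for Dsp and chr5:36988983-36989232 on the minus strand for Wfs1.
Prox1: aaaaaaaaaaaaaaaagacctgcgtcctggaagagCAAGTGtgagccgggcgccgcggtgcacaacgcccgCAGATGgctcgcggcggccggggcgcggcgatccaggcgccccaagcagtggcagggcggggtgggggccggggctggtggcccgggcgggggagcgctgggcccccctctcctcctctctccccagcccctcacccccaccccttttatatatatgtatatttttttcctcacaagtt
C1ql2: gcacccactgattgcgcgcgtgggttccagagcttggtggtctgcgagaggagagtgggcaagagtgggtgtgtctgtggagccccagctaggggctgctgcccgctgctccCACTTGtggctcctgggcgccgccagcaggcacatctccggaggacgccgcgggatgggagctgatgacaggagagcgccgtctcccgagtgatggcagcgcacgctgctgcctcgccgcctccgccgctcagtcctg
Dsp: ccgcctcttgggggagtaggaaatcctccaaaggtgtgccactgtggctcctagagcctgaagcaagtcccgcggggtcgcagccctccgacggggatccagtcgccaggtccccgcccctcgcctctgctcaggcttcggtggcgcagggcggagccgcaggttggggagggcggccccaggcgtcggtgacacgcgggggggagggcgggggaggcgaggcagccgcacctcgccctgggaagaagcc
Wfs1: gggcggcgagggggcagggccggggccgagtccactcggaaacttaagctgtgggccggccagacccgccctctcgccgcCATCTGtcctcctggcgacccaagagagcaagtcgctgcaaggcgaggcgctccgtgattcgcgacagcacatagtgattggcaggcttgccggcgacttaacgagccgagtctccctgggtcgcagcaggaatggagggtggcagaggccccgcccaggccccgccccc

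The Prox1 window held 2 E-boxes, those of C1ql2 and Wfs1 held 1 each, and that of Dsp held 0. Among 32851 promoter windows of this length, 66.2% held at least 1 E-box, so its presence or absence is common. The form CAGATG, which reads CATCTG on the other strand, was in the Prox1 and Wfs1 windows and in 14.4% of all windows. At the start sites shown, the 3 dentate members therefore did not share an E-box count, and these letters say nothing about binding. The window of a second annotated Prox1 start site held 0 E-boxes. The windows shown for Prox1, C1ql2, Dsp and Wfs1 had GC contents of 64.8%, 68.8%, 72.4% and 69.6%, against a median of 52.4% over all windows. Of the 7 members, 6 were found in the promoter table, and Spink8 is named only.

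Gene counts per sample ran from 4.61e+07 to 8.86e+07, and reads placed outside genes took 5.09% to 13.2% of a sample (median 7.61%). Ndufs4 itself was at 27.4 to 39.1 CPM (counts-per-million on scaled library sizes) in KO samples and at 38.9 to 62.8 CPM in WT samples. In all, 6 samples stood apart in markers of other brain regions: L227, L228 and L272 had the highest mean log2 level of 10 striatal markers, and L201, L233 and L278 the highest summed level of 5 cerebellar markers. The M-labelled sample L291 had 47.5 CPM of Xist, between the other M samples (at most 0.832 CPM) and the F samples (at least 438 CPM), and L266 of the same group had differed from its replicates in an earlier comparison. Results that these samples change are given with and without them.

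All 7 members were detected in every sample, with 48 to 15449 counts. Per kilobase of annotated exon, the mean over 36 samples was highest for Wfs1 (39.4 ± 9.95 CPM per kilobase, SD, n = 36), followed by Neurod6 at 24.6 ± 6.86. C1ql2, which encodes a secreted C1q-like protein of mossy fibre synapses, had 11.5 ± 4.54 CPM per kilobase, and Fibcd1, which encodes a membrane receptor for acetylated sugars, had 8.41 ± 2.60. Prox1, the homeobox factor that sets granule neuron identity, had 5.23 ± 1.09 CPM per kilobase. Spink8, a member of the Kazal-type serine protease inhibitor family, had 3.75 ± 1.78 CPM per kilobase, and Dsp, which encodes the desmosomal linker desmoplakin, had 0.784 ± 0.450.

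The 3 members with the lowest median CPM, before division by length, varied most between animals of a group. The within-group SD of log2 CPM was 0.89 for Dsp, 0.69 for C1ql2 and 0.60 for Spink8. It was 0.45 for Fibcd1, 0.35 for Prox1, 0.29 for Neurod6 and 0.26 for Wfs1. C1ql2 spanned 3.27 to 51.6 CPM over the 36 samples, a range of 15.8-fold, whereas Wfs1 spanned 91.7 to 243 CPM, a range of 2.65-fold. Differences of a given size were thus harder to separate from this spread for Dsp and C1ql2 than for Wfs1 and Neurod6. Both extremes of C1ql2 lay in F mice given CP2.

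**Figure D1:**
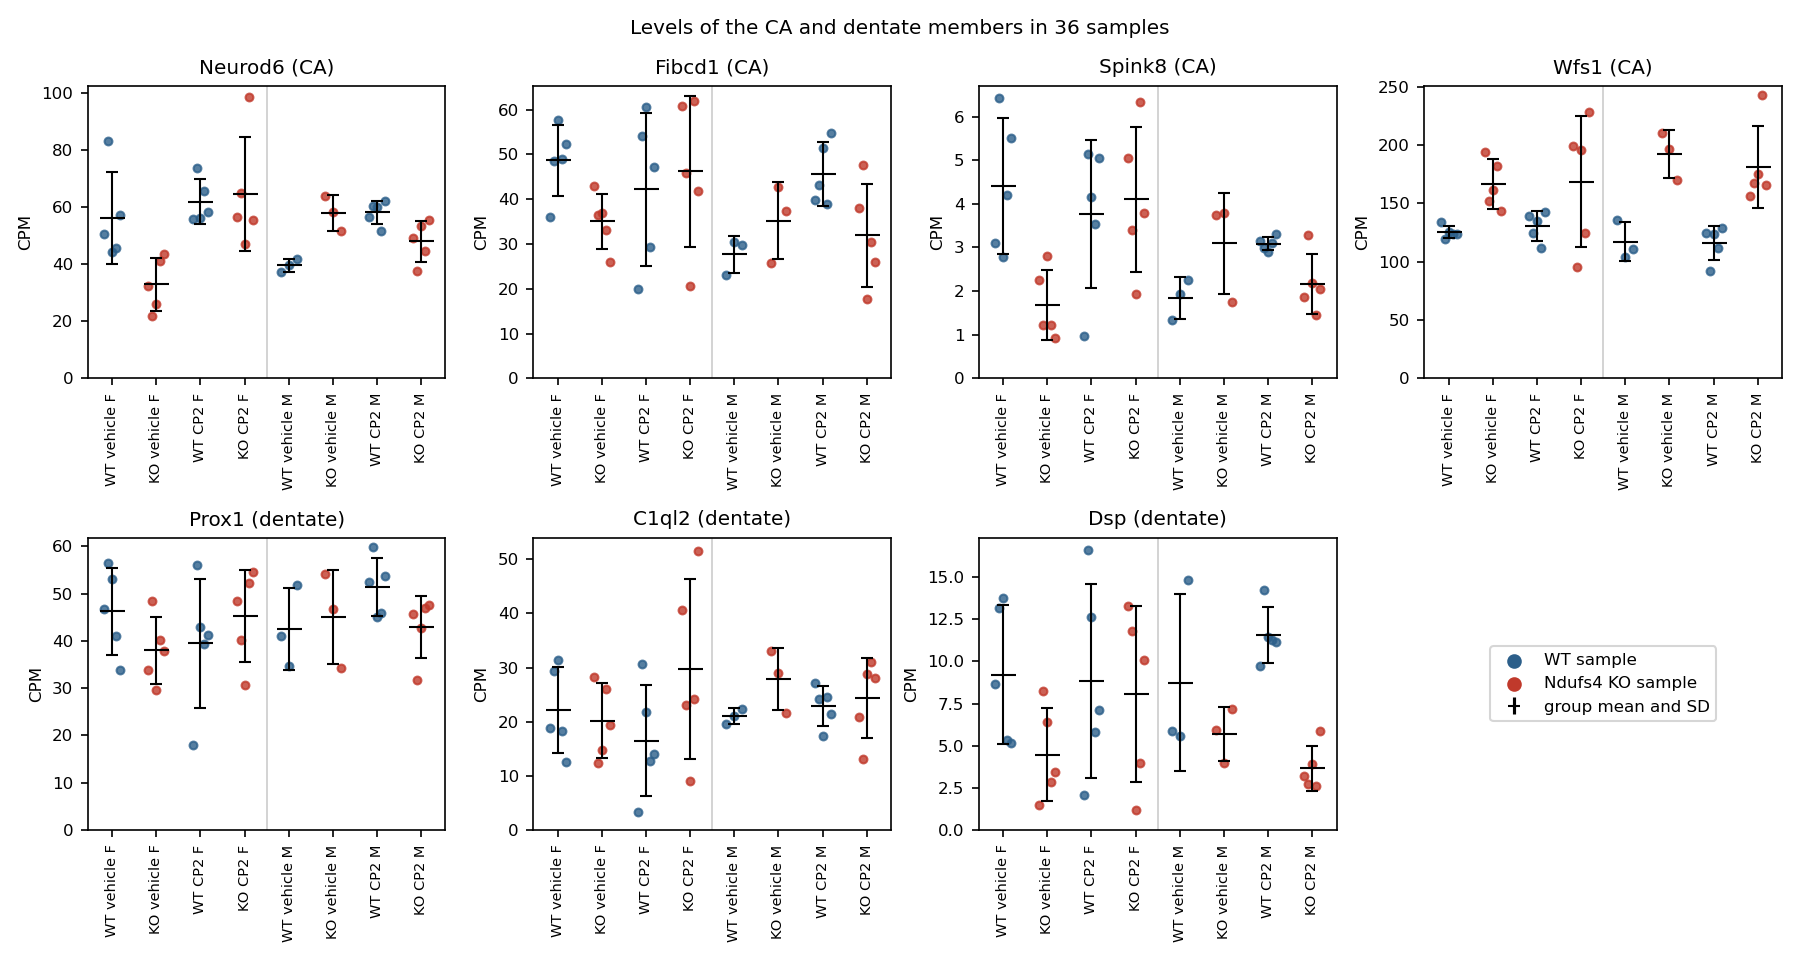
CPM (vertical axis, from 0) of each member in each of the 8 groups (horizontal axis). Points are samples, blue for WT and red for KO, and black marks give the group mean and SD. All 4 KO group means of Wfs1 lie above all 4 WT means, and the 4 WT means of Dsp lie above its 4 KO means.

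Wfs1 was higher in KO than in WT in all 4 comparisons of genotype, a direction that no other CA member kept in all 4. It encodes wolframin, a membrane protein of the endoplasmic reticulum whose loss causes Wolfram syndrome. In M mice given CP2, the 5 KO samples had 156, 165, 167, 175 and 243 CPM, and the 5 WT samples had 91.7, 112, 123, 125 and 128 CPM. Every KO sample was above every WT sample. The fitted difference was 1.56-fold (log2 0.65, SE 0.16, adjusted p = 0.00835 with edgeR's quasi-likelihood test).

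In M mice given vehicle, KO samples had 170.3, 196 and 210.5 CPM of Wfs1 and WT samples had 104, 111 and 136 CPM, again without overlap. This difference was as large (log2 0.72, SE 0.21) but missed the threshold with 3 samples a group (edgeR adjusted p = 0.105), while DESeq2 called it (adjusted p = 0.0121). A call in this comparison is not independent of the choice of members, so nothing is read from it. In F mice given CP2, KO samples had 95.1, 124, 196, 199 and 229 CPM and WT samples had 111, 125, 135, 139 and 143 CPM. The KO sample L216 was the lowest of both groups here, and the groups overlapped. The difference was log2 0.37 (SE 0.16, edgeR adjusted p = 0.243), and without L216 it was 0.52 (adjusted p = 0.0423).

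In F mice given vehicle, where the result is a description only, KO samples had 143, 152, 161, 182 and 194 CPM of Wfs1 and WT samples had 119, 123, 124, 125 and 134 CPM. The groups did not overlap, and the difference was log2 0.41 (SE 0.16). Averaged over F and M within CP2, a contrast added after the data had been seen, the knockout difference was log2 0.51 (SE 0.11, edgeR adjusted p = 0.00293). Of all genes, 11.6% were called in that average, and Wfs1 was the 1 member of 7. The order of group means ran from KO vehicle M (192 CPM) through KO CP2 M (181), KO CP2 F (168) and KO vehicle F (166) to WT CP2 F (131), WT vehicle F (125), WT vehicle M (117) and WT CP2 M (116). Among neighbours in this order, only KO vehicle F and WT CP2 F differed by more than the larger of their SDs.

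No CP2 effect on Wfs1 was detected. The 4 fitted CP2 effects lay between log2 -0.09 and 0.06, each smaller than its SE. The 95% intervals were -0.45 to 0.28 in KO M and -0.26 to 0.38 in WT F.

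Some genes that work beside wolframin in the endoplasmic reticulum passed the test in comparisons of genotype. Of 8 genes on that list, 2 were called lower in KO in F with CP2 (2% of all genes were called), 2 in M with CP2 (9.99%) and 3 in the average of both (11.6%), and 0 were called higher. In F with vehicle, a comparison that chose the members, 1 was lower, Hsp90b1 (log2 -0.30, SE 0.08). There 4.96% of all genes were called, and nothing is read from it. In M with vehicle edgeR called 0 (0.516% of all genes), and 3 had an unadjusted p under 0.05 (12.2%). The smallest was that of Eif2ak3, the kinase PERK (log2 0.27, SE 0.10). Hspa5, which encodes the chaperone BiP, was lower in KO by a log2 difference of -0.61 (SE 0.15, adjusted p = 0.0292) in F with CP2 and -0.47 (SE 0.15, adjusted p = 0.0426) in M with CP2. Xbp1, a transcription factor of the unfolded protein response, was lower in F with CP2 (log2 -0.54, SE 0.12, adjusted p = 0.0181). Hsp90b1, the chaperone GRP94, was lower in M with CP2 (log2 -0.27, SE 0.08, adjusted p = 0.0211). These adjusted p-values are from edgeR over all genes. The median log2 difference of the list was -0.19 in F with CP2, -0.11 in M with CP2, -0.17 in F with vehicle and -0.08 in M with vehicle, against medians over all genes within 0.03 of 0.

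Dsp was lower in KO in the same M mice given CP2. The 5 KO samples had 2.59, 2.72, 3.21, 3.9 and 5.89 CPM and the 5 WT samples had 9.74, 11.2, 11.3, 11.4 and 14.3 CPM. The groups did not overlap, and KO was 3.16-fold lower (log2 -1.66, SE 0.53, edgeR adjusted p = 0.0427). With Wfs1 this makes 2 of 7 members called in M mice with CP2, where 9.99% of all genes were called and 11.1% did not overlap between groups. The call for Dsp stood close to the threshold: it was lost when any one of 10 samples was left out, all but 1 of them from these groups, with log2 differences between -1.89 and -1.56 over all 36 omissions. Without L266 and L291 it was -1.49 (adjusted p = 0.203).

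The share of reads outside genes differed between the same groups. It was 5.18% to 9.06% (median 7.41%) in KO M with CP2 and 9.05% to 13.2% (median 11.2%) in WT M with CP2. With this share in the model, the Dsp difference was log2 -0.79 (adjusted p = 0.554) and the Wfs1 difference was 0.68 (adjusted p = 0.0583). Markers of other cells differed there too, where 9.99% of all genes were called. Of these, 3 of 4 microglial markers and 2 of 7 hypothalamic and brainstem markers were called higher in KO, with Tph2 and Slc6a4, genes of serotonin neurons, among them. Their part in the Dsp and Wfs1 results was not tested.

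In the other 3 comparisons of genotype the fitted Dsp difference was also negative, and none that was tested gave a call. In F with vehicle, KO samples had 1.45, 2.85, 3.44, 6.39 and 8.22 CPM and WT samples had 5.17, 5.33, 8.64, 13.2 and 13.8 CPM, a difference of log2 -1.05 (SE 0.52) that is given as a description. In M with vehicle the range was 3.98 to 7.18 CPM in KO and 5.56 to 14.8 CPM in WT. In F with CP2 the range was 1.19 to 13.3 CPM in KO and 2.07 to 16.6 CPM in WT, with L227 and L228 the lowest of their groups. There the difference was log2 -0.13 (SE 0.51), and the KO median (10.1 CPM) lay above the WT median (7.12 CPM). Averaged over F and M with CP2 the difference was log2 -0.90 (SE 0.37, adjusted p = 0.116), and without L227, L228 and L272 it was -0.98 (adjusted p = 0.049). The test of whether the knockout difference with CP2 was larger in M than in F gave an interaction of 1.53 as F minus M (SE 0.73, edgeR adjusted p = 0.338).

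No partner of desmoplakin passed the test with it. Of 7 desmosome and armadillo genes, edgeR called 0 in M with CP2 (9.99% of all genes were called). There 3 had an unadjusted p under 0.05 (23.6% of all genes), and the median log2 difference was 0.03. The smallest p belonged to Ctnnb1, the beta-catenin gene (log2 0.18, SE 0.06, adjusted p = 0.0503), and the next to Pkp2, a plakophilin that binds desmoplakin (log2 -0.62, SE 0.22, adjusted p = 0.0677).

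Neurod6, Spink8 and Fibcd1 were lower in KO than in WT in F mice with vehicle by their fitted values, and higher in M mice with vehicle. Neurod6 is a basic helix-loop-helix factor of differentiating and mature pyramidal neurons. In F mice with vehicle it had 21.9, 26.0, 32.3, 41.2 and 43.6 CPM in KO and 44.2, 45.9, 50.6, 57.3 and 83.4 CPM in WT. All KO samples lay below all WT samples, a difference of log2 -0.77 (SE 0.18). In M mice with vehicle the KO samples had 51.6, 58.5 and 63.9 CPM and the WT samples had 37.2, 39.9 and 41.8 CPM. Here all KO samples lay above, and the difference was log2 0.55 (SE 0.24, edgeR adjusted p = 0.319), which was called when M samples were fitted alone (0.54, adjusted p = 0.00988). The F minus M difference of this effect was in view when the members were chosen, so nothing is read from that call.

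The fitted CP2 differences of Neurod6 in knockouts also had opposite signs in F and M. They use the same KO vehicle samples as the comparisons above, so they are not a second observation. In F knockouts given CP2, Neurod6 was at 47.1, 55.5, 56.7, 65.2 and 98.7 CPM, above all 5 vehicle samples, a difference of log2 0.97 (SE 0.18) as a description. In M knockouts given CP2 it was at 37.7, 44.6, 49.2, 53.4 and 55.5 CPM, which overlapped with vehicle (log2 -0.27, SE 0.21, edgeR adjusted p = 0.522). In M the change of the CP2 effect with genotype was log2 -0.83 (SE 0.30, adjusted p = 0.148), and in F, as a description, it was 0.83 (SE 0.26). KO vehicle F had the lowest group mean of Neurod6 (33.0 ± 9.39 CPM, SD, n = 5) and KO CP2 F the highest (64.6 ± 20.1 CPM, SD, n = 5). Without L233 the CP2 difference in F knockouts was log2 0.77.

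Spink8, measured at a lower CPM, had fitted differences of the same sign as Neurod6 in these comparisons. In F mice with vehicle, KO samples had 0.933, 1.22, 1.24, 2.26 and 2.81 CPM and WT samples had 2.79, 3.10, 4.20, 5.50 and 6.42 CPM. The highest KO sample just passed the lowest WT sample, and the difference was log2 -1.39 (SE 0.34). In F knockouts with CP2 the samples had 1.94, 3.41, 3.79, 5.05 and 6.33 CPM, a difference from vehicle of log2 1.28 (SE 0.34). In M the knockout difference with vehicle was log2 0.75 (SE 0.44, edgeR adjusted p = 0.520) and the CP2 difference in knockouts was -0.51 (SE 0.39, adjusted p = 0.509). The M samples with vehicle were few, and their KO and WT values overlapped.

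Fibcd1 pointed the same way as Neurod6 and Spink8 with smaller differences relative to its spread. In F with vehicle, KO samples had 26.1 to 43.0 CPM (median 36.4) and WT samples 36.1 to 57.7 CPM (median 49.0), a difference of log2 -0.47 (SE 0.27) as a description. In M with CP2 the knockout difference was log2 -0.51 (SE 0.27, edgeR adjusted p = 0.259). The lowest F samples given CP2 were L228 (19.9 CPM) and L227 (20.7 CPM).

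In WT M mice these 3 CA members were all higher with CP2, without overlap between the groups. Neurod6 had 37.2 to 41.8 CPM with vehicle and 51.8 to 62.2 CPM with CP2 (log2 0.56, SE 0.21). Fibcd1 had 23.0 to 30.4 CPM with vehicle and 38.9 to 54.8 CPM with CP2 (log2 0.72, SE 0.32). Spink8 had 1.33 to 2.27 CPM with vehicle and 2.90 to 3.31 CPM with CP2 (log2 0.74, SE 0.40). So 3 of 7 members did not overlap, against 4.54% of all genes. In that comparison edgeR called 0 of 25601 genes and DESeq2 0 of the 7 members, the edgeR adjusted p was 1.0 for all 3, and 2 members had an unadjusted p under 0.05 (3.04% of all genes). With 3 vehicle samples the order of the samples is all that separates the groups. These vehicle samples also belong to the F minus M difference that was in view when the members were chosen. Nothing is therefore read from the separation.

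In WT F mice no such separation was seen, and 0 members were called by edgeR or DESeq2 or had an unadjusted p under 0.05, against 0% and 2.65% of all genes. The values of Neurod6, Fibcd1 and Spink8 overlapped between CP2 and vehicle there, with log2 differences between -0.22 and 0.14. Whether the CP2 effect in WT differed between F and M was tested as an interaction, and the adjusted p was 1.0 for every member. There 0% of all genes were called, and 1 member, Fibcd1, had an unadjusted p under 0.05, as did 2.14% of all genes.

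Prox1 and C1ql2 passed the test in no comparison of genotype or CP2. The group means of Prox1 ran from 38.0 ± 7.12 CPM in KO vehicle F to 51.4 ± 6.08 CPM in WT CP2 M (SD, n = 5 each), and no 2 neighbours in the order differed by more than the larger SD. C1ql2 ran from 16.5 ± 10.3 CPM in WT CP2 F to 29.7 ± 16.6 CPM in KO CP2 F (SD, n = 5 each). These 2 groups also gave its largest knockout difference, log2 0.85 (SE 0.40, edgeR adjusted p = 0.302). The WT group had 3.27, 12.7, 14, 21.8 and 30.7 CPM and the KO group 9.07, 23.1, 24.2, 40.7 and 51.6 CPM. The lowest value of each group came from L228 and L227, the samples with the highest summed level of striatal markers.

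Over the whole design, edgeR called Wfs1 and Dsp in M with CP2, Wfs1 in the average over F and M with CP2, and no member in the other tested comparisons. Every share of all genes called, here and elsewhere, is that of edgeR, and none is given for DESeq2. With vehicle in M, 0 of 7 were called where 0.516% of all genes were, and Neurod6 and Wfs1 had an unadjusted p under 0.05, as 12.2% of genes did. Those 2 were also the members without overlap between the groups, where 20.9% of genes had none. With CP2 in F, 0 of 7 were called by edgeR or DESeq2 where 2% of all genes were, and Wfs1 and C1ql2 had an unadjusted p under 0.05, as 15.7% of genes did. In M with CP2 these unadjusted calls were Wfs1 and Dsp, against 23.6% of genes.

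For CP2 against vehicle in M knockouts, edgeR and DESeq2 called 0 of 7 where 5.1% of all genes were called, and 0 members had an unadjusted p under 0.05 where 19.4% of genes did. For the change of the CP2 effect with genotype in M, edgeR called 0 of 7 and 1.98% of genes, and Neurod6 and Spink8 had an unadjusted p under 0.05, as 16.6% of genes did. That contrast uses the M vehicle samples, so it is not independent of the choice of members. For the F minus M difference of the knockout effect with CP2, edgeR called 0 of 7 and 0.82% of genes, and Dsp had an unadjusted p under 0.05, as 14.2% of genes did. Between M and F averaged over groups, 0 of 7 were called by either tool where 10.3% of genes were, and Fibcd1 and Spink8 had an unadjusted p under 0.05, as 24.4% of genes did. Without L227, L228 and L272 both were called lower in M (Fibcd1 log2 -0.45, edgeR adjusted p = 0.0146, and Spink8 -0.53, adjusted p = 0.0247). The share of all genes called without these samples is not given here. L227 and L228 were the lowest of their F groups for both genes, so leaving them out raises those groups. Nothing is read from these calls. In the contrasts that chose the members, 2 of 7 did not overlap in F with vehicle (4.7% of all genes) and 1 of 7 with CP2 in F knockouts (1.04%, and 0.0859% were called there), from which nothing is read.

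**Figure D2:**
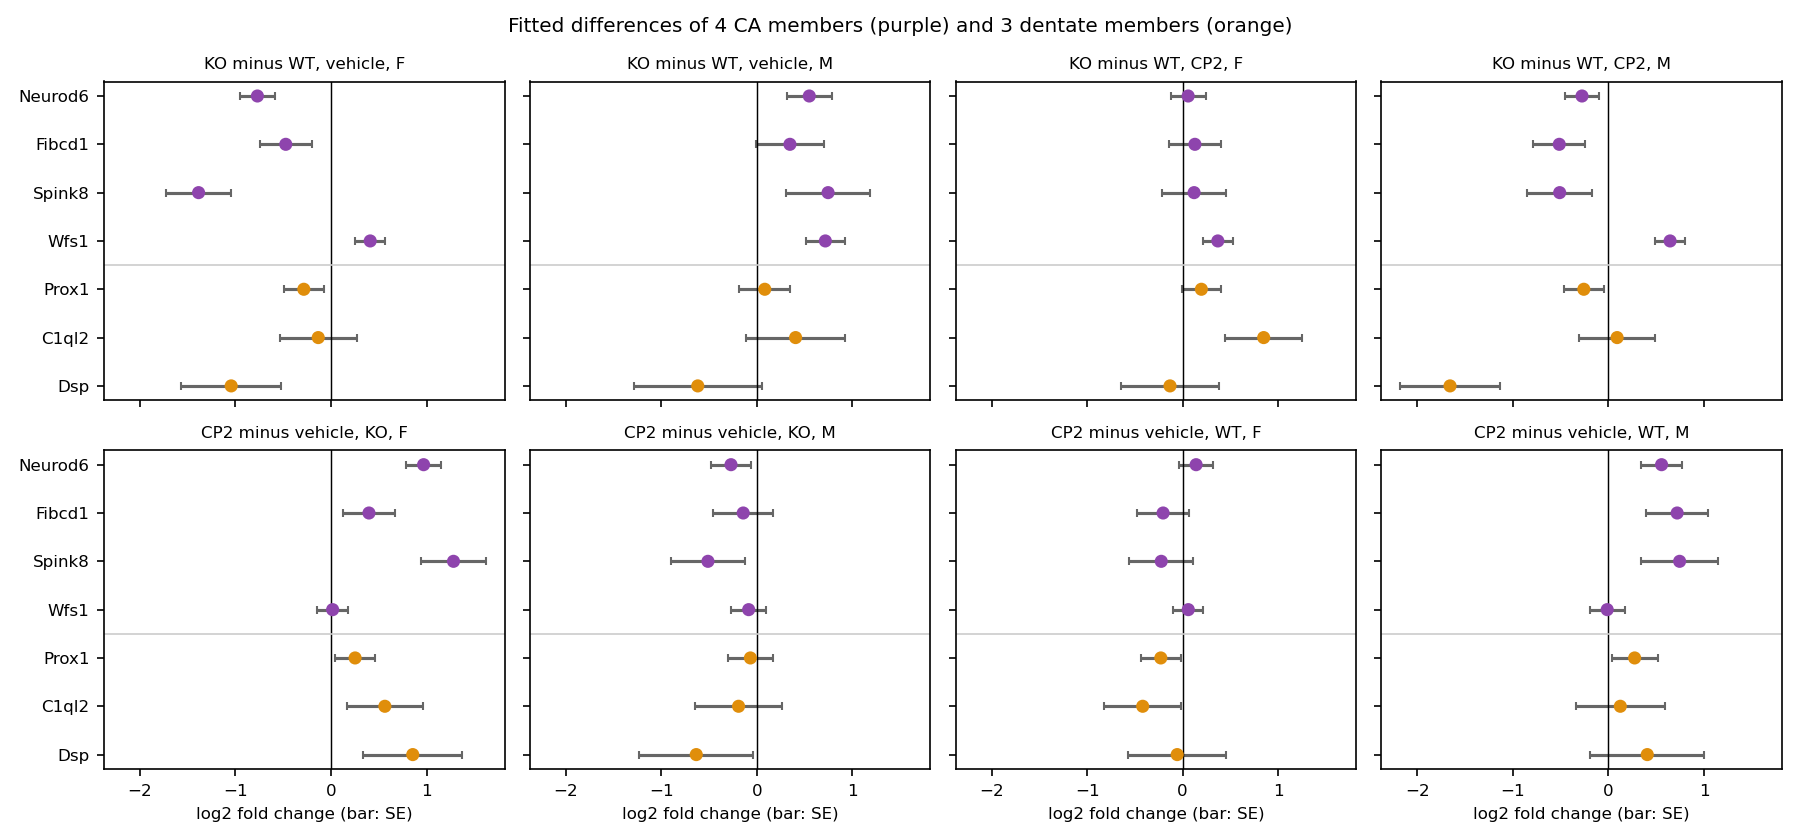
Log2 fold change (horizontal axis) with its SE (bar) for each member (vertical axis) in 8 comparisons of groups, with CA members in purple and dentate members in orange. In F knockouts all 7 members lie on the higher side with CP2. In M knockouts all 7 lie on the lower side, several by less than their SE. Wfs1 lies on the higher side in every comparison of KO with WT.

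The question whether CA and dentate genes move together was first read from these group differences. In F knockouts, CP2 against vehicle was positive for 7 of 7 members, with a mean log2 difference of 0.67 over the CA members and 0.56 over the dentate members. That direction was known when the members were chosen. In M knockouts it was negative for 7 of 7, with means of -0.25 and -0.30, and 0 were called. Only Neurod6, Spink8 and Dsp differed there by at least their SE. Reads outside genes took 11.3% to 13.0% of M knockout samples with vehicle and 5.18% to 9.06% with CP2. With this share in the model, the Spink8 and Dsp differences turned positive. In F with vehicle, KO against WT was negative for all 3 dentate members and for 3 of 4 CA members, with Wfs1 the exception. In M with vehicle it was positive for all 4 CA members (mean 0.59) and for 2 of 3 dentate members (mean -0.04), with Dsp the exception.

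These comparisons share samples, so their signs are not separate observations. The median over all genes was within 0.03 of 0 in each of them.

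The wider lists of CA and dentate genes showed few calls. Of 16 further CA genes, 2 fell in vehicle-treated F knockouts, Iyd and Hpca (4.96% of all genes were called there). In F with CP2, 1 was called higher in KO, Homer3 (log2 0.97, SE 0.26, edgeR adjusted p = 0.0437). In M, edgeR called 0 with vehicle (0.516% of all genes) and 0 with CP2 (9.99%). An unadjusted p under 0.05 was found for 5 genes in M with vehicle (12.2% of all genes), 1 in F with CP2 (15.7%) and 1 in M with CP2 (23.6%). Homer3, a postsynaptic scaffold protein, is also abundant in cerebellar Purkinje cells. In F with CP2, 4 of 5 cerebellar markers were called higher in KO, where 2% of all genes were called. There L201 and L233 had summed cerebellar levels of 445 and 123 CPM, against 15.9 to 21.3 CPM in the other 3 KO samples. Their part in the Homer3 result was not tested. The median log2 difference of the CA list was -0.15 in F with vehicle, 0.22 for CP2 in F knockouts and -0.20 for CP2 in M knockouts. The first 2 of these comparisons were among those that chose the members, so nothing is read from them.

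Of 8 further dentate genes, 1 fell in vehicle-treated F knockouts, the cation channel gene Trpc6 (log2 -0.59, SE 0.14; 4.96% of all genes were called there), and edgeR called 0 in the other 3 comparisons of genotype. In those 3 comparisons 0.516% to 9.99% of all genes were called. An unadjusted p under 0.05 was found for 1 gene in M with vehicle (12.2% of all genes), 1 in F with CP2 (15.7%) and 3 in M with CP2 (23.6%). In the average over F and M with CP2, where 11.6% of all genes were called, Rfx3 was lower (log2 -0.25, SE 0.08, edgeR adjusted p = 0.0467). The median of the list was -0.15 in F with vehicle, 0.06 in M with vehicle, 0.03 in F with CP2 and -0.28 in M with CP2. Of 6 genes of immature granule neurons, edgeR called 0 in the 4 comparisons of genotype (0.516% to 9.99% of all genes were called). An unadjusted p under 0.05 was found for 0 to 2 of them, against 12.2% to 23.6% of all genes outside F with vehicle. Igfbpl1 was higher in the average over F and M with CP2 (log2 0.87, SE 0.24, edgeR adjusted p = 0.0153).

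Of 6 NeuroD-related factors, 1 was called in M with vehicle, where 0.516% of all genes were called. Neurod2, which like Neurod6 marks pyramidal neurons, was higher in KO (log2 0.77, SE 0.16, edgeR adjusted p = 0.0190). Of 9 C1q-like and synaptic partner genes, the kainate receptor gene Grik2, whose product binds C1q-like proteins at mossy fibre synapses, was lower in KO in M with CP2 (log2 -0.30, SE 0.09, edgeR adjusted p = 0.0275) and was lower with CP2 in M knockouts (log2 -0.38, SE 0.11, adjusted p = 0.0279). Of all genes, 9.99% were called in the first of these comparisons and 5.1% in the second.

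Co-variation between animals was then measured apart from the groups, as the correlation of log2 CPM after each group's mean had been subtracted. P-values come from 100000 permutations within groups and were adjusted over the 21 pairs of members. By r all 3 dentate pairs passed, and by rho 2 of the 3 did. Prox1 and C1ql2 had r = 0.80 (rho = 0.63, permutation adjusted p = 0.00042 for r, n = 36). Prox1 and Dsp had r = 0.66 (rho = 0.57, adjusted p = 0.00805, permutation test) and C1ql2 and Dsp had r = 0.59 (rho = 0.40, adjusted p = 0.0486, permutation test).

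Within the CA set 1 of 6 pairs passed: Fibcd1 and Spink8 had r = 0.64 (rho = 0.54, permutation adjusted p = 0.00805, n = 36). Neurod6 had r = 0.27 with Spink8 and 0.05 with Fibcd1. Wfs1 had r between -0.30 and -0.11 with the other CA members. Co-variation under the CA label was thus detected for Fibcd1 and Spink8 and not for the other 5 pairs, and no measure here separates CA cells from other pyramidal neurons.

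Between the sets, 0 of 12 pairs passed by r or by rho, and 3 had an unadjusted p under 0.05. The median r was 0.36, and 10 of 12 values were positive, the highest being 0.49 for Spink8 and C1ql2 (permutation adjusted p = 0.143). Wfs1 held both negative values. The median rho was 0.16, lower than the median r.

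In all, 2 F samples given CP2 were low in members of both sets. L227 (KO) had 20.7 CPM of Fibcd1, 1.94 CPM of Spink8, 30.7 CPM of Prox1, 9.07 CPM of C1ql2 and 1.19 CPM of Dsp, each the lowest of its group. L228 (WT) had 19.9, 0.964, 18, 3.27 and 2.07 CPM of the same genes, each again the lowest of its group, and both samples had the lowest Neurod6 of their groups. Wfs1 was not low in either: L227 had 196 CPM and L228 had 139 CPM. For Fibcd1 and Spink8 against the dentate members, r lay between 0.38 and 0.49 over all samples and between 0.00089 and 0.090 without L227 and L228, so these relations rest on those samples. Without the 2 samples farthest from the median of the first-named gene, r was 0.64 for Prox1 and C1ql2, 0.48 for Prox1 and Dsp, 0.30 for C1ql2 and Dsp and 0.44 for Fibcd1 and Spink8. Extremes of the second gene could remain.

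Without L227, L228 and L272 no pair of the 21 passed. Prox1 and C1ql2 kept r = 0.57 (permutation adjusted p = 0.0592), the median of the dentate pairs was 0.40, and the median between the sets was -0.14, with 4 of 12 positive. Over the 20 F samples 1 pair between the sets passed, Fibcd1 and C1ql2 (r = 0.73, permutation adjusted p = 0.0404). Over the 16 M samples the same pair had r = -0.70 (permutation adjusted p = 0.199), and 0 of 21 pairs passed. In M the Neurod6 values with Prox1 and C1ql2 were the highest between the sets, at 0.69 and 0.60. C1ql2 and Dsp lost their call with 24 of the 36 samples left out in turn.

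**Figure D3:**
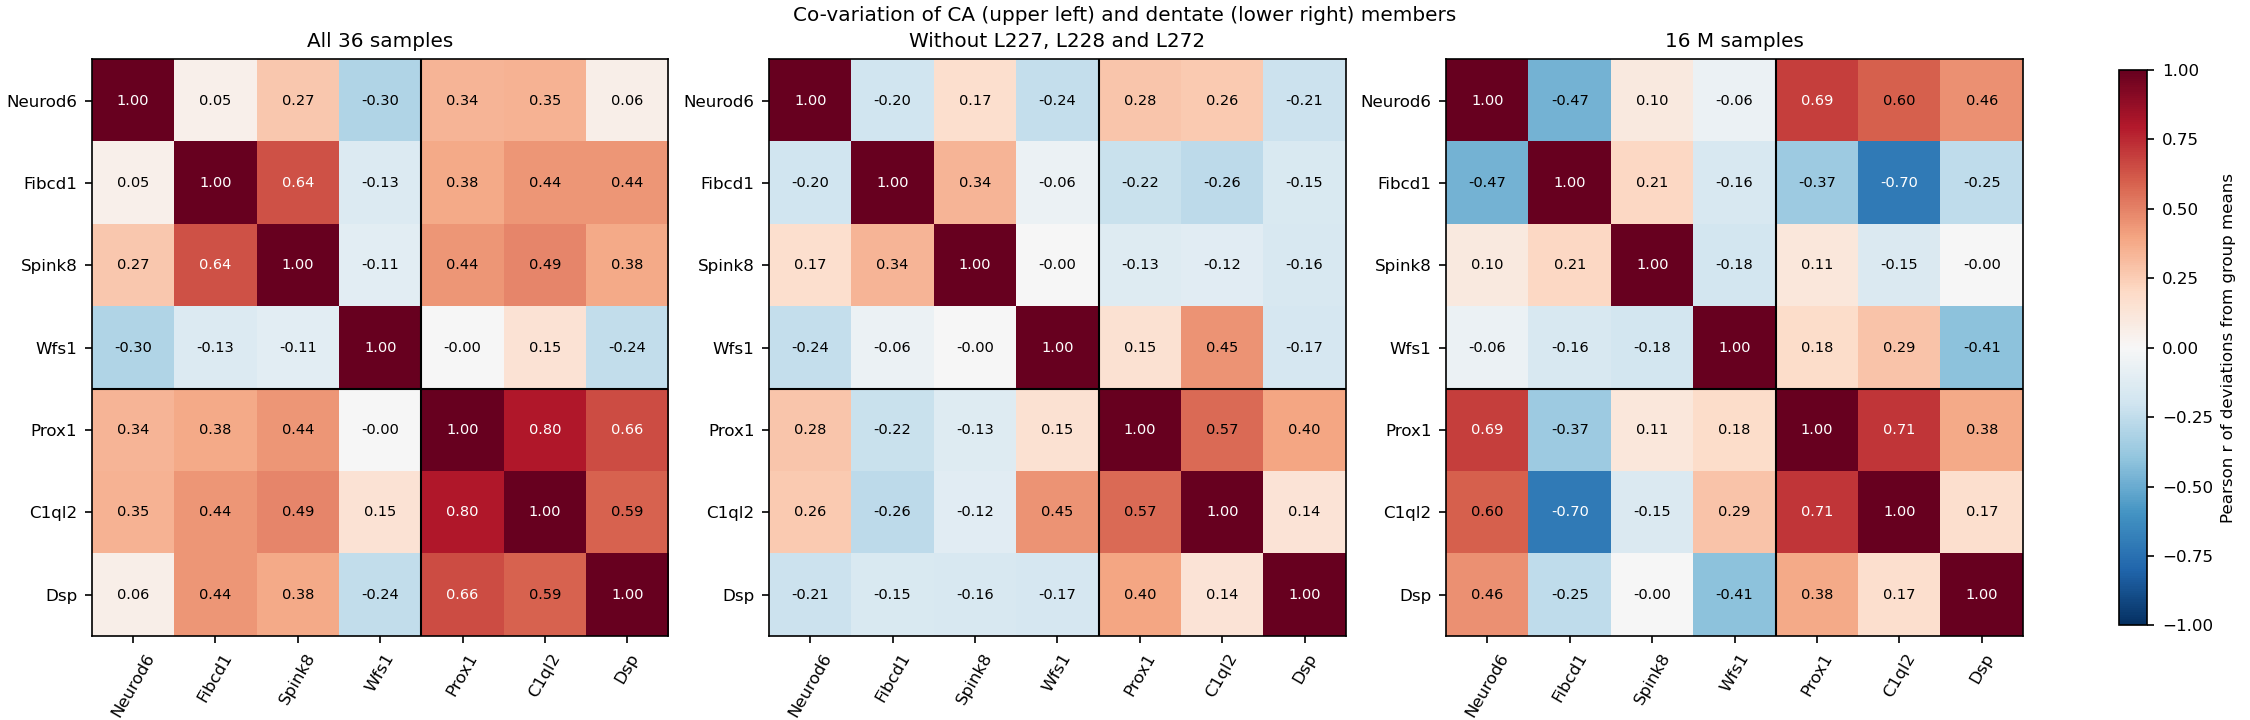
Pearson r of deviations from group means for all pairs of members, over all 36 samples, without L227, L228 and L272, and over the 16 M samples alone. Colour runs from -1 (blue) to 1 (red), and black lines part the CA from the dentate members: the block between the sets turns from mostly positive to mixed when the 3 samples are left out.

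By r, the level of striatal markers was negatively correlated with 3 members, Prox1, C1ql2 and Fibcd1. The summed level of 10 striatal markers was 1370 CPM in L227 and 1227 CPM in L228, against 227.6 to 872 CPM in the other 34 samples. Over 36 samples the mean log2 level of the list had r = -0.64 with Prox1 (rho = -0.47, permutation adjusted p = 0.0189), -0.59 with Fibcd1 (rho = -0.45, adjusted p = 0.0266) and -0.56 with C1ql2 (rho = -0.30, adjusted p = 0.0406), adjusted over 14 relations in the same permutation test. Without L227 and L228 these r values were -0.45, -0.36 and -0.27. The adjusted p-values are for r, and the rho of C1ql2 had a permutation p of 0.125 before adjustment. Dsp did not pass (r = -0.44, rho = -0.25, permutation adjusted p = 0.112, and r = -0.11 without L227 and L228), and Wfs1 had r = 0.07 with the striatal list. With the cortical list, Fibcd1 had r = -0.48 (rho = -0.45, permutation adjusted p = 0.0266), and it was -0.43 without the 2 samples farthest from the median of that list. Their part in the co-variation of members was not tested.

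**Figure D4:**
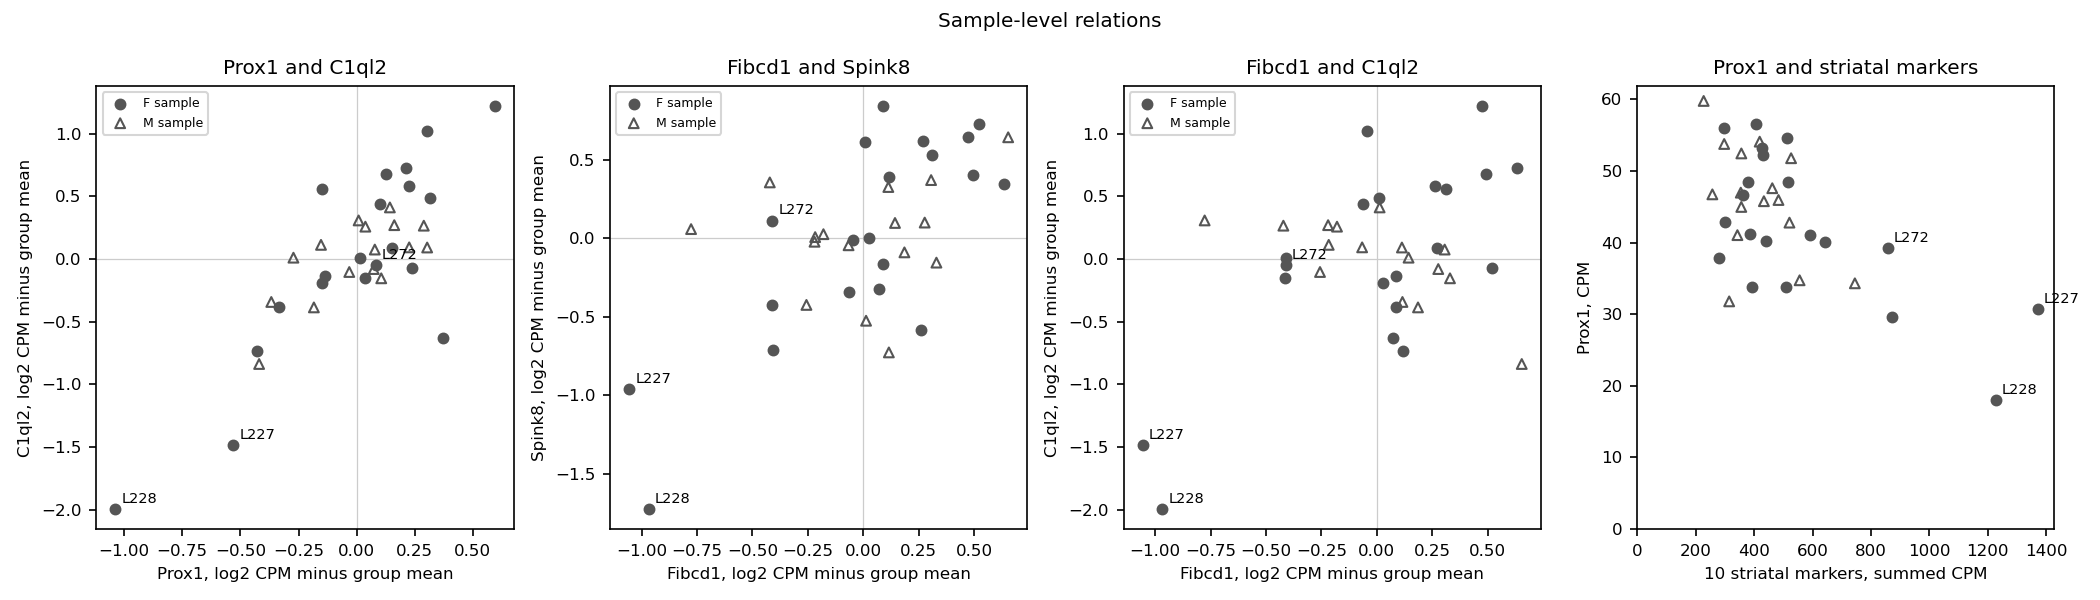
The first 3 panels plot each sample's log2 CPM minus its group mean for 2 members (filled circles, F; open triangles, M), and the last plots Prox1 in CPM against the summed CPM of 10 striatal markers. L227 and L228 lie at the lower left of the first 3 panels and at the right of the last, where Prox1 is 30.7 and 18 CPM.

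The strongest partners of the dentate members in the whole table included each other. Among 15419 genes with a mean of at least 1 CPM, Prox1 ranked first for C1ql2 and C1ql2 first for Prox1. For Prox1 the next were Pcdh20 (r = 0.79) and Olfml2b (0.78), for C1ql2 they were Mtmr10 (0.79) and Cabp7 (0.79), and for Dsp the first 3 were AC115631.1 (0.79), Vwa3b (0.78) and Tspan18 (0.78). Dsp ranked 28 for Prox1 and 65 for C1ql2. These values are a description over the same 36 samples and include L227 and L228.

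The CA members had no partner in common among their first 3. Those of Neurod6 were Zeb2 (r = 0.76), Gm26747 (0.75) and Zdhhc23 (0.73). Those of Fibcd1 were Gpr161 (0.80), Dgkg (0.76) and Crim1 (0.72), and Spink8 ranked 32. Those of Spink8 were Slc9a4 (0.80), Cpne7 (0.78) and Gm26644 (0.77), and Fibcd1 ranked 37. Wfs1 had Smpdl3b (0.71), Pm20d2 (0.63) and Pcdh8 (0.62), and Fibcd1, Spink8 and Neurod6 ranked below the middle of the table for it.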

How the data were processed

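PolyA RNA from 36 mouse brain samples was counted per Ensembl gene. The deposited values are raw read counts, made by the authors with STAR and HTSeq on GRCm39, per the submitters' processing notes. Versions, annotation release, strandedness and read filters are not given in the sources used here. The 5 summary rows took 12.0% to 19.6% of each column and were left out. Symbols came from a GENCODE M21 name table (91.4% of identifiers matched), which also gave exon lengths. Strand use is unknown, so overlapping genes are uncertain.

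Genes were tested with edgeR 4.0.16 in R 4.3.3 (TMM, filterByExpr, robust quasi-likelihood fit) on all 36 samples with 1 coefficient for each of 8 groups. P-values were adjusted by Benjamini-Hochberg within a contrast over 25601 genes, and a gene was called under 0.05. Intervals of differences are 95%. CPM uses TMM library sizes, and correlations use log2 CPM with a prior count of 2. Promoter windows and motif counts came from RefSeq. Alternatives were DESeq2 1.42.0, other scaling, no filter, covariates and omitted samples. The scripts were tested on simulated data.

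The members and lists were chosen with earlier results of these data known. Named genes are the 7 members, Ndufs4, the 3 genes most correlated with each member, and at most 3 of each list with the smallest p in the comparison. Tph2 and Slc6a4 are among them, and Xist was named after its values had been seen.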

Additional observations from a re-analysis of the deposited data

Results flagged for a closer look

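Of 42 member and group combinations with 5 samples, 1 had a sample far from the rest, where chance alone flags about 1 in 20 such groups. In KO CP2 M, sample L298 had 243 CPM of Wfs1, and the next sample had 175 CPM. Without L298 the knockout difference in M with CP2 was log2 0.52, and it was still called by edgeR.

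For Neurod6, in 2 comparisons every F sample of one group lay on one side of the mean of the group it was compared with, and every M sample lay on the other side, although the M groups overlapped for CP2 in knockouts. The knockout effect with vehicle differed by log2 -1.32 as F minus M, and the CP2 effect in knockouts differed by 1.24. The members were chosen with these effects in view, and the difference was not tested.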

How the results depend on the processing

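No paired analysis was possible because the title numbers differ in every sample and no 2 groups share one. Group differences that were at least as large as their standard error, and the named pairs, were refitted under the alternatives, except that the 5 averages over F and M could not be refitted with F and M apart. Of 328 such refits of group differences, not counting single omitted replicates, 5 changed sign, 5 lost a call and 7 gained one. In M with CP2, the Wfs1 difference was 0.68 with a covariate for reads outside genes (adjusted p = 0.0583) and 0.52 to 0.69 over omitted replicates, all called. The Dsp difference there was -1.66 without the low-count filter (adjusted p = 0.0707), -0.79 with the outside-genes covariate, -1.60 with title number as a covariate, -1.49 without L266 and L291, and -1.89 to -1.56 over omitted replicates. Calls gained were Neurod6 in KO against WT in M with vehicle (0.54) and with CP2 (-0.28) and Wfs1 in M with vehicle (0.71) with M fitted alone, Wfs1 in M with vehicle by DESeq2 (0.73), and, without L227, L228 and L272, Fibcd1 (-0.45) and Spink8 (-0.53) in M against F and Dsp in the average over F and M with CP2 (-0.98). Signs turned with the outside-genes covariate for Spink8 in KO against WT with CP2 in M (0.027), Spink8 (0.10) and Dsp (0.40) for CP2 in M knockouts, and without L227, L228 and L272 for Prox1 (0.018) and C1ql2 (0.010) for CP2 in WT F. Nothing is read from the gained calls in M with vehicle or in M against F, for the reasons given above. The causes were not tested.

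Counts of called pairs within CA fell from 1 to 0 in M alone and without L227, L228 and L272, and were 0 to 1 over omitted replicates. Within the dentate set they fell from 3 to 0 in both settings and were 1 to 3 over omitted replicates, with 1 when L228 was left out. Between the sets they rose from 0 to 1 in F alone and without L201, L233 and L278, and were 0 to 1 over omitted replicates. Correlations that turned negative in M alone were Neurod6 and Fibcd1 (-0.47), Fibcd1 with Prox1 (-0.37), C1ql2 (-0.70) and Dsp (-0.25), and Spink8 with C1ql2 (-0.15) and Dsp (-0.0025). Without L227, L228 and L272 they were Neurod6 and Fibcd1 (-0.20), Fibcd1 with Prox1 (-0.22), C1ql2 (-0.26) and Dsp (-0.15), and Spink8 with Prox1 (-0.13), C1ql2 (-0.12) and Dsp (-0.16). Neurod6 and Fibcd1 was -0.054 without L201, L233 and L278, and ran from -0.11 to 0.14 over omitted replicates. The scaling method changed no called pair. At 48 counts in the lowest sample, depth limits Spink8 most.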
